A study of Saccharomyces cerevisiae with 8 samples.

Results

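The 9 genes described here encode the enzymes of arginine synthesis in the budding yeast Saccharomyces cerevisiae, the mitochondrial ornithine carrier and the small subunit of the arginine-specific carbamoyl phosphate synthetase. They were listed by name from the pathway and are given in pathway order: ARG2, ARG5,6, ARG8, ARG7, ORT1, CPA1, ARG3, ARG1 and ARG4. All 9 were among the 6465 genes that could be tested. Total RNA of 3 haploid MATα strains of the SEY6210 background was compared on 8 Agilent arrays with Cy5 and Cy3 channels. The double mutant, which carried pdr5-∆1::hisG and yor1-1::hisG, was set against the wild type on 4 arrays and against the triple mutant on 4 others. The triple mutant carried pdr1::kanMX4 beside both hisG alleles. The wild type is described with leu2-3,-112 and ura3-52, with lys2-801 and trp1-∆901, and with his3-∆200, suc2-∆9 and GAL. No arginine gene is among the alleles named for any strain. Cells were grown in YPD, a rich medium that contains amino acids, at 30 °C to an optical density of about 0.6. The dyes were swapped within each comparison: arrays 1 and 3 had the double mutant in Cy5, and arrays 2 and 4 had it in Cy3. Separate cultures for the arrays are not named in the labels, and the p-values below therefore cover only how far these arrays differ.

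Arginine is made from glutamate. The first steps run on acetylated intermediates inside the mitochondrion and end in ornithine, which is carried to the cytosol and joined with carbamoyl phosphate to give citrulline, from which arginine is made. In S. cerevisiae these genes are under general control by Gcn4, an activator of amino acid synthesis genes that is made when cells lack amino acids, and several of them are also repressed by arginine through a complex of Arg80, Arg81 and Mcm1. PDR5 and YOR1 encode plasma membrane transporters that export drugs, and PDR1 encodes a transcription factor that activates both.

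Of the 8 arrays 2 stood apart. Array 4 of the double mutant against the wild type had a wider spread of ratios than the other arrays of that comparison, with an SD over all genes of 0.458 on the log2 scale, against 0.234 to 0.279 on arrays 1 to 3, and the members' results are given with and without it. Array 2 of the double mutant against the triple mutant was dim over an area in its middle, spanning spot rows 49 to 121 of 192. On that array 11% of probes in Cy5 and 9.45% in Cy3 lay more than 4-fold from the array's own typical shift, against at most 1.46% on any other array. Of the members' 18 probes only the second probe of CPA1 passed this 4-fold limit, and it was not the probe used in the test. Other members' probes fell less, down to -1.71 on the log2 scale for the second probe of ARG1 in Cy3. Their positions on the array were not set against the dim area. Both probes of every member were well above background in all 16 channel measurements, and none was saturated. Their mean log2 ratios against the wild type differed by 0.001 to 0.087 within a gene.

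The disrupted genes were read as a check of the labels. PDR1 was well above background on 0 of 4 arrays in the channel labelled double mutant and on 4 of 4 in that labelled triple mutant, which goes against the labels of that comparison. It stood at the 0.0611th to 3.22nd percentile of all probes in the channel labelled double mutant, against the 32.6th to 47.6th in that labelled triple mutant. On the arrays against the wild type, PDR1 was well above background on 4 of 4 in the channel labelled double mutant. It stood there at the 41.6th to 47.3rd percentile. Ratios of the comparison with the triple mutant are therefore given as labelled, double over triple, and their direction is not settled. YOR1, a gene that Pdr1 activates, had a fitted log2 ratio of -1.67 there (adjusted p = 1.8e-05), and was thus, like PDR1, lower in the channel labelled double mutant. In the comparison with the wild type the fitted log2 ratio was -1.46 for PDR5 and 1.94 for YOR1, with the double mutant over the wild type. The sources used here do not place these probes inside or outside the disrupted stretches, so neither ratio checks a label.

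Transcripts of 4 of the 9 arginine synthesis genes were lower in the double mutant than in the wild type, most of all those of the 3 enzymes that turn ornithine into arginine. ARG1 was 5.29-fold lower, ARG3 3.28-fold and ARG4 2.54-fold, and the ornithine carrier ORT1 was 1.51-fold lower. Without array 4 of this comparison ARG1 was 3.45-fold lower, ARG3 2.15-fold, ARG4 1.71-fold and ORT1 1.27-fold. No member was called higher with or without that array. These 4 members were called lower at an adjusted p below 0.05 by limma's moderated test over all 6465 genes, where 4.97% of genes were called lower and 3.25% higher. The median fitted log2 ratio of the members was -0.94, against -0.01 for all genes tested. Without array 4 of this comparison, 6 of 9 members were called lower and 0 higher, and the median was -0.43. In that fit 6.9% of genes were called lower and 5.86% higher. With array 4 the ratios were thus larger and their errors wider, and of the fits that left out 1 array, ARG5,6 and ARG7 passed the test only in the one without it. All these fits share 1 spread per gene over both comparisons. With the 4 arrays against the wild type alone, limma called 0 of 9 members, with ARG1 at an adjusted p of 0.103.

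**Figure D1:**
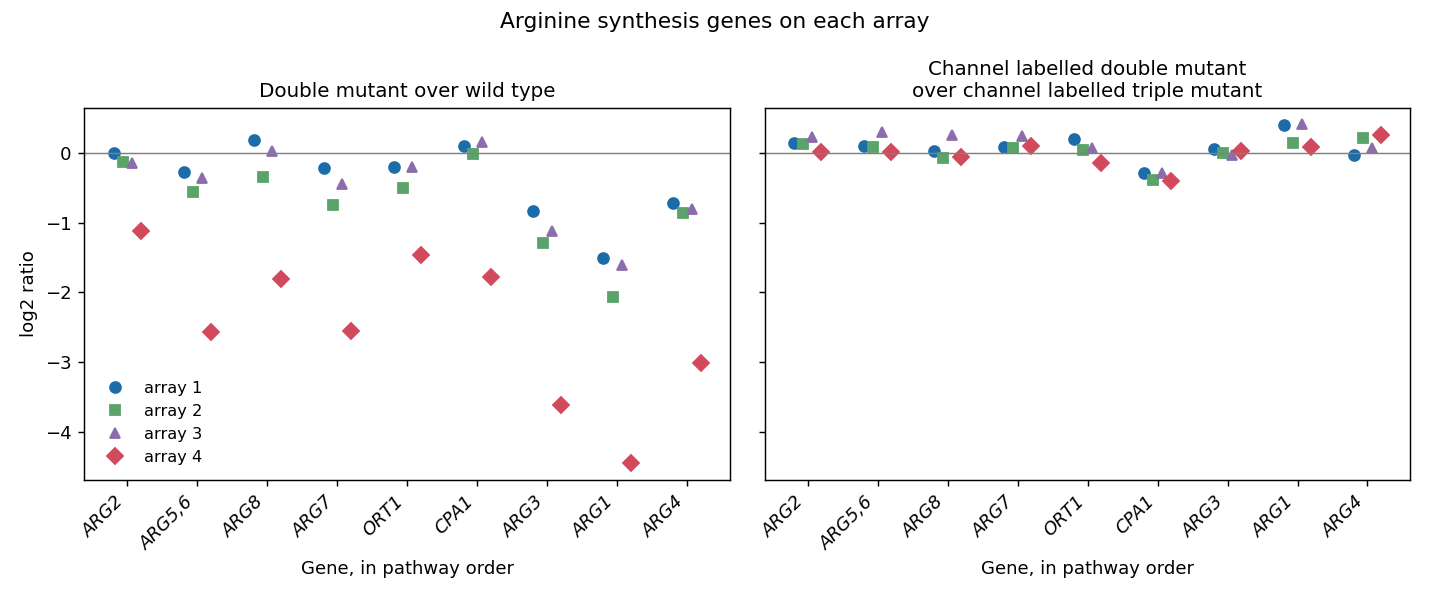
Log2 ratio of each arginine synthesis gene on each array, with the double mutant over the wild type on the left and, as labelled, the double over the triple mutant on the right; genes run in pathway order and each point is 1 array. On the left array 4 lies below the other 3 arrays for all 9 genes, from -1.11 for ARG2 to -4.44 for ARG1, while on the right all values lie between -0.41 and 0.41.

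The acetylated steps come first in the pathway. ARG2 (YJL071W), the acetylglutamate synthase that commits glutamate to the pathway, had log2 ratios of 0.00, -0.13, -0.14 and -1.11 on arrays 1 to 4 against the wild type. Its ratios on arrays 1 to 3 lay close to 0, and only array 4 was low. The fitted ratio was -0.35 ± 0.14 (SE; adjusted p = 0.174), and -0.11 without array 4 (adjusted p = 0.243), so ARG2 was not called with or without it.

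ARG5,6 (YER069W) encodes a precursor that is cut into the acetylglutamate kinase and the acetylglutamyl-phosphate reductase. Its log2 ratios were -0.28, -0.56, -0.36 and -2.57 on arrays 1 to 4. All 4 arrays were below 0, with array 4 far below the others. The fitted ratio was -0.94 ± 0.29 (SE; adjusted p = 0.0866). Without array 4 it was -0.43 with a much smaller error of 0.06, and ARG5,6 was called lower (adjusted p = 0.00203).

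ARG8 (YOL140W), the acetylornithine aminotransferase, had log2 ratios of 0.19, -0.35, 0.02 and -1.81. Its sign was mixed over arrays 1 to 3. The fitted ratio of -0.49 ± 0.23 (SE) was not called (adjusted p = 0.233), nor was the value of -0.10 without array 4 (adjusted p = 0.401).

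ARG7 (YMR062C) encodes the ornithine acetyltransferase, which releases ornithine and recycles the acetyl group to glutamate. Its log2 ratios were -0.22, -0.75, -0.45 and -2.55, below 0 on all 4 arrays. The fitted ratio was -0.99 ± 0.28 (SE; adjusted p = 0.0665), and without array 4 it was -0.51 and called (adjusted p = 0.00318). ARG7 thus followed ARG5,6 array by array.

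ORT1 (YOR130C), the carrier that exchanges ornithine out of the mitochondrion, had log2 ratios of -0.20, -0.50, -0.20 and -1.47. All 4 arrays were below 0. It was called lower at -0.59 ± 0.15 (SE; adjusted p = 0.0485), and at -0.34 without array 4 (adjusted p = 0.00678). The call with all arrays was close to the threshold: leaving out array 1 or 3 of this comparison gave adjusted p values of 0.117 and 0.101, and leaving out any array of the other comparison gave 0.0688 to 0.0868.

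CPA1 (YOR303W) encodes the small, glutamine-using subunit of the arginine-specific carbamoyl phosphate synthetase, and arginine is known to act on it through a short peptide encoded upstream in its transcript. Its log2 ratios were 0.10, -0.01, 0.15 and -1.78. Arrays 1 to 3 lay around 0 and array 4 alone was low. The fitted ratio was -0.39 ± 0.25 (SE; adjusted p = 0.381), and without array 4 it was 0.06 (adjusted p = 0.473), the only member above 0 in that fit.

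ARG3 (YJL088W), the ornithine carbamoyltransferase that makes citrulline, had log2 ratios of -0.83, -1.29, -1.12 and -3.61 on arrays 1 to 4. All 4 were well below 0. It was called lower at -1.72 ± 0.35 (SE; adjusted p = 0.0224), and at -1.10, or 2.15-fold lower, without array 4 (adjusted p = 6.15e-05). Leaving out array 1 or array 3 instead gave -1.92 and -1.81, with adjusted p values of 0.0612 and 0.0678.

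ARG1 (YOL058W) encodes the argininosuccinate synthetase, which joins citrulline with aspartate. Its log2 ratios were -1.50, -2.06, -1.61 and -4.44, the lowest of the 9 genes on each of the 4 arrays. It was called lower at -2.40 ± 0.35 (SE; adjusted p = 0.00627), the lowest fitted ratio of all 6465 genes. Without array 4 the ratio was -1.79, or 3.45-fold lower (adjusted p = 3.94e-07), and ARG1 still ranked 1 of 6465 from the lowest. It was called when any of the 8 arrays was left out, with adjusted p values up to 0.0306.

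ARG4 (YHR018C), the argininosuccinate lyase that releases arginine and fumarate, had log2 ratios of -0.72, -0.86, -0.80 and -3.01. Arrays 1 to 3 lay close together and array 4 far below them. It was called lower at -1.35 ± 0.32 (SE; adjusted p = 0.0408), and at -0.78, or 1.71-fold lower, without array 4 (adjusted p = 0.000187). With all arrays this call was also close to the threshold: it was lost without array 1 (adjusted p = 0.0993), without array 3 (0.0921) and without any 1 array of the other comparison (0.0646 to 0.0748).

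**Figure D2:**
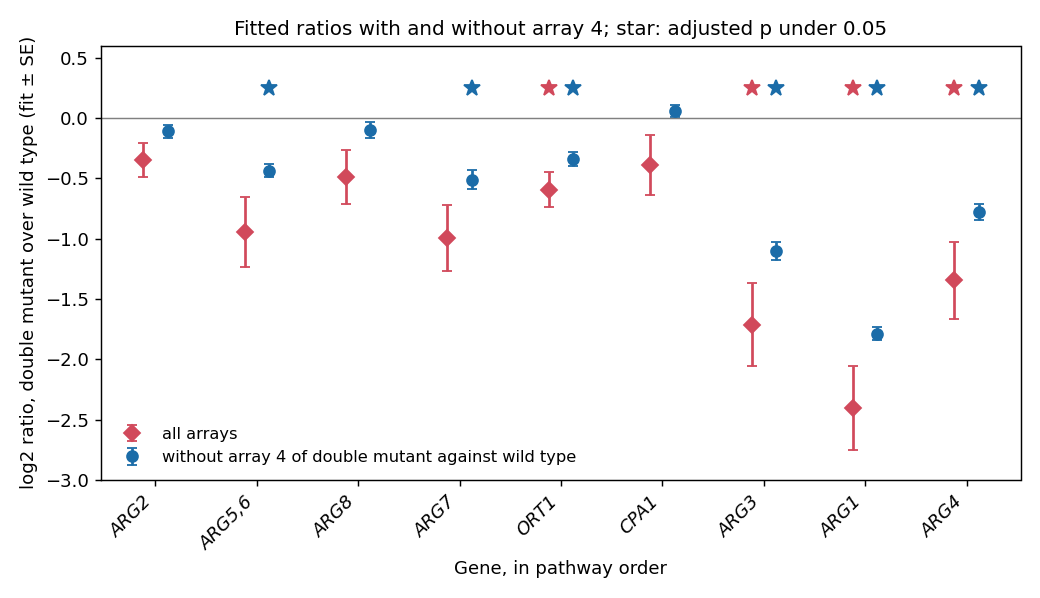
Fitted log2 ratio of the double mutant over the wild type with its SE for each gene in pathway order, from all arrays (diamonds) and without array 4 of this comparison (circles); stars mark an adjusted p below 0.05. Without array 4 every ratio lies nearer to or above 0 and its error is smaller, and 6 genes pass in place of 4.

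The genes kept an order across arrays. ARG1 was the lowest of the 9, ARG3 the next and ARG4 after it on all 4 arrays against the wild type. The 3 steps from ornithine to arginine had a median log2 ratio of -0.83, -1.29, -1.12 and -3.61 on arrays 1 to 4, while the 5 genes of the acetylated steps and of ornithine export had -0.20, -0.50, -0.20 and -1.81. On each array the highest of the first 3 genes lay below the lowest of the other 5, as on array 1 with -0.72 against -0.28. Other members changed places: ARG8 was the highest member on array 1, CPA1 on arrays 2 and 3, and ARG2 on array 4.

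Array 4 differed from arrays 1 to 3 in size for every member. Its ratio was the lowest of the 4 for 9 of 9 members, and 33.2% of all genes were lowest on that array. The difference between array 4 and the mean of arrays 1 to 3 ran from -1.02 for ARG2 to -2.72 for ARG1. For ARG2 this difference was at the 3.22nd percentile of all genes from the lowest, and for ARG1 at the 0.155th. On array 4 all 9 members had a log2 ratio below -1, as had 3.67% of all genes. URA1, the dihydroorotate dehydrogenase of the pyrimidine branch, went the other way: its log2 ratios were -0.39, -0.36, -0.62 and 1.50.

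In the single channels this difference lay mainly in the wild-type channel of array 4. The position of each gene's probe among all probes of a channel, ranked by background-subtracted signal, was used to describe this, with no test. In the channel labelled wild type all 9 members stood higher on array 4 than on arrays 1 to 3. In the channel labelled double mutant 7 of 9 did. For ARG1 the gain in percentile was larger in the double mutant, where the probe started lower.

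ARG3 stood at the 28.6th percentile in the double mutant on array 4, against the 89.7th in the wild type. On arrays 1 to 3 the double mutant's range was 12.9 to 13.5 and that of the wild type 21.7 to 26.1. ARG1 stood at the 81st percentile in the double mutant on array 4, against the 98.8th in the wild type. The ranges over arrays 1 to 3 were 41.2 to 46.6 for the double mutant, against 77.9 to 81.3 for the wild type. ARG1 thus stood about as high in the double mutant on array 4 as in the wild type on arrays 1 to 3.

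ARG5,6 stood at the 51.5th percentile in the double mutant on array 4, against the 88.6th in the wild type. Its values on arrays 1 to 3 were 27.6 to 37.8 for the double mutant, against 35.1 to 47.5 for the wild type, so these ranges overlapped. CPA1, whose probe was bright throughout, stood at the 87.9th percentile in the double mutant on array 4, against the 94.1st in the wild type. On arrays 1 to 3 CPA1 ranged over 87.4 to 87.8 for the double mutant, against 85.9 to 87.5 for the wild type. ORT1 and ARG8 were the members that did not stand higher in the double mutant on array 4 than on all of arrays 1 to 3.

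Arrays 2 and 4 of this comparison carry the strains in the same dyes, so each channel can be set side by side with no change of dye. After scaling between arrays, the wild-type signal was higher on array 4 than on array 2 for 9 of 9 members, with a median difference of 2.43 on the log2 scale and a range of 1.10 to 4.22. The double-mutant signal was higher for 7 of 9 members, with a median of 0.49 and a range of -0.02 to 1.84. Arrays 1 and 3, the other pair of equal dyes, differed by a median of 0.04 in the wild type and -0.07 in the double mutant. The cause of the values on array 4 was not tested.

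**Figure D3:**
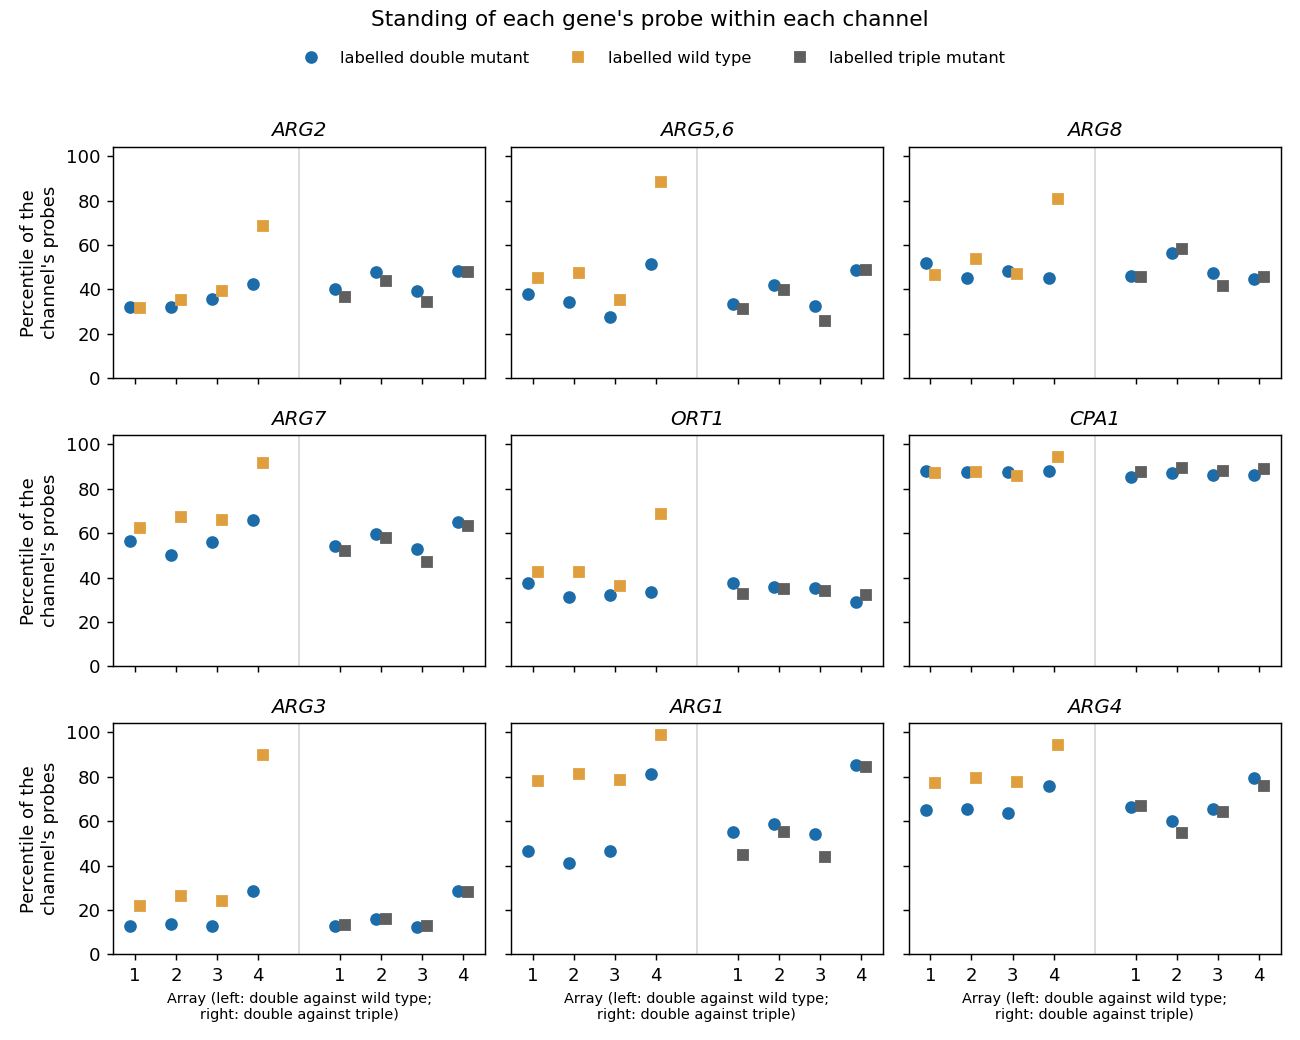
Percentile of each gene's probe among all probes of a channel, by array; circles are the channel labelled double mutant and squares the channel labelled wild type (left 4 arrays) or triple mutant (right 4 arrays). On array 4 of the first comparison the wild-type squares stand above those of arrays 1 to 3. The gain is smallest for CPA1, at 94.1 against 85.9 to 87.5, and largest for ARG3, at 89.7 against 21.7 to 26.1.

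Between double and triple mutant, as labelled, the arginine genes differed little. At an adjusted p below 0.05, 0 of 9 members were called, where 1.59% of all genes were called in either direction by limma. At an unadjusted p below 0.05 there were likewise 0 members, and 946 genes. The median fitted log2 ratio of the members was 0.12, as the labels run, against -0.003 for all genes, and the members ranged from -0.34 to 0.26. Turned in sign, the median was -0.12. This comparison shares the double mutant with the one above, though on other arrays, and both come from 1 fit. The wide spread of array 4 against the wild type thus also widened the errors here. The narrow spread here in turn entered the errors given against the wild type. The SD over arrays of the member median was 1.09 against the wild type and 0.0921 against the triple mutant. Without array 4 of the comparison with the wild type, 2 of 9 members were called, where 7.32% of genes were.

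CPA1 was the member called lower in the channel labelled double mutant in that fit. Its log2 ratios were -0.28, -0.39, -0.28 and -0.41 on arrays 1 to 4, below 0 on every array and the lowest of the 9 members on each. The fitted ratio was -0.34 with all arrays (adjusted p = 0.602) and the same without array 4 of the other comparison (adjusted p = 0.00192). With the sign turned it would be 0.34. Without array 4 CPA1 was thus the member nearest to 0 against the wild type and the one furthest from 0 here.

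ARG1 was called higher in the channel labelled double mutant in the fit without that array. Its log2 ratios were 0.39, 0.14, 0.41 and 0.08, above 0 on all 4 arrays. The fitted ratio was 0.26 in both fits, with an adjusted p of 0.823 with all arrays and 0.0167 without array 4 of the other comparison. Both dyes gave the same sign, with arrays 1 and 3 higher than arrays 2 and 4. With the sign turned the ratio would be -0.26.

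The other 7 members had fitted ratios of 0.01 to 0.13 and were called in neither fit. ARG3, the second lowest member against the wild type, had log2 ratios of 0.06, -0.01, -0.03 and 0.03 here, the closest to 0 of the 9. Those of ARG4 were -0.03, 0.21, 0.07 and 0.26, and those of ARG2 were 0.15, 0.13, 0.23 and 0.02. ARG5,6 had 0.10, 0.08, 0.30 and 0.01, and ARG7 had 0.09, 0.07, 0.24 and 0.10. Both were above 0 on every array but small. ARG8 and ORT1 were of mixed sign, with ranges of -0.07 to 0.25 and -0.15 to 0.20.

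Levels within these arrays moved more than the ratios. On array 4 of this comparison ARG1 stood at the 85.1st percentile in the channel labelled double mutant and at the 84.2nd in that labelled triple mutant. On arrays 1 to 3 its range was 54 to 58.8 as labelled double mutant, against 43.8 to 54.9 as labelled triple mutant. ARG3 stood at 28.6 and 27.9 in the same channels on array 4, against ranges of 12.4 to 16.1 and 12.9 to 15.9 on arrays 1 to 3. For 6 of 9 members (ARG2, ARG5,6, ARG7, ARG3, ARG1 and ARG4) array 4 was the high array in every channel of both comparisons, and in the comparison with the triple mutant both channels were high together. Array 2 of this comparison is the one with the dim area, so its percentiles are less certain.

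Genes around the pathway were counted in 6 further lists. Of the 5 genes of the pyrimidine branch 0 were called with all arrays by limma, and 1 had an unadjusted p below 0.05, where 24.6% of all genes did. The median log2 ratio was 0.01. URA10, an orotate phosphoribosyltransferase, had a fitted ratio of -0.40 (adjusted p = 0.185), and URA4, the dihydroorotase, 0.14 (0.589). URA1 had 0.03 (0.958) and URA2, which opens pyrimidine synthesis, 0.01 (0.942). Without array 4 URA1 was called lower, at -0.40 (adjusted p = 0.0113), so the sign of its ratio turned on that array.

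Of 6 regulators 1 was called lower and 0 higher, with and without array 4, where 4.97% and 6.9% of all genes were called lower. The regulator called was GCN4, the activator of amino acid synthesis genes, with log2 ratios of -0.39, -0.40, -0.17 and -0.70. GCN4 was low on all 4 arrays, with a fitted ratio of -0.41 (adjusted p = 0.0126), and of -0.33 without array 4 (adjusted p = 0.0106). Gcn4 is known to be controlled mainly in translation, which arrays do not measure. ARG80, ARG81 and MCM1, which encode parts of the arginine repressor complex, had fitted ratios of -0.10, -0.06 and -0.02, with adjusted p values of 0.548, 0.683 and 0.950.

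Of the 6 lists substrate supply had the most calls. Of 10 genes for glutamate, glutamine and aspartate 5 were called lower and 0 higher, where 4.97% and 3.25% of all genes were. Their median log2 ratio was -0.35. Without array 4 the same 5 were called lower, where 6.9% of all genes were, and the median was -0.19. GLN1, the glutamine synthetase, fell by 0.47 on the log2 scale (adjusted p = 0.0267). AAT2, the cytosolic aspartate aminotransferase, fell by 0.42 (adjusted p = 0.0417), and GLT1, the glutamate synthase, fell by 0.42 (adjusted p = 0.0251). IDP1, the mitochondrial isocitrate dehydrogenase that uses NADP, had -0.39 and was not called (adjusted p = 0.164).

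Of the 8 genes of arginine breakdown 0 were called lower and 1 higher, with and without array 4. Among all genes 3.25% were called higher with all arrays and 5.86% without array 4. The median log2 ratio of the list was -0.04. The gene called higher was DUR1,2, the urea amidolyase, at 0.40 (adjusted p = 0.0145). DUR3, a urea and polyamine transporter, had -0.46 (0.275), and CAR2, the ornithine aminotransferase, 0.19 (0.147). PUT2, a proline breakdown dehydrogenase, had -0.10 (adjusted p = 0.533).

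Of 10 genes of uptake and vacuolar transport 0 were called with all arrays by limma. Without array 4, 2 were called lower, where 6.9% of all genes were. At an unadjusted p below 0.05 with all arrays there were 2 of 10, where 24.6% of all genes passed. RTC2, a vacuolar transporter of basic amino acids, had -1.26 (adjusted p = 0.0824) and, without array 4, was called lower at -0.59 (adjusted p = 0.00126). GAP1, the general amino acid permease, had -0.43 (0.249), and CAN1, the arginine permease, had -0.18 (0.593). ALP1, a basic amino acid permease, had -0.17 (0.104) and was called lower at -0.22 without array 4 (adjusted p = 0.0357). Of the 2 genes of ornithine use, SPE1 and OAZ1, neither was called with all arrays, and OAZ1, the inhibitor of ornithine decarboxylase, was called higher at 0.28 without array 4 (adjusted p = 0.0258). In the comparison with the triple mutant no gene of the 6 lists was called with all arrays, where 1.59% of all genes were. Without array 4 of the comparison with the wild type, 6 of their 41 genes were called, all higher in the channel labelled double mutant, among them URA1 at 0.69 (adjusted p = 0.000579) and URA4 at 0.54 (adjusted p = 0.000801). With the sign turned these would be lower.

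**Figure D4:**
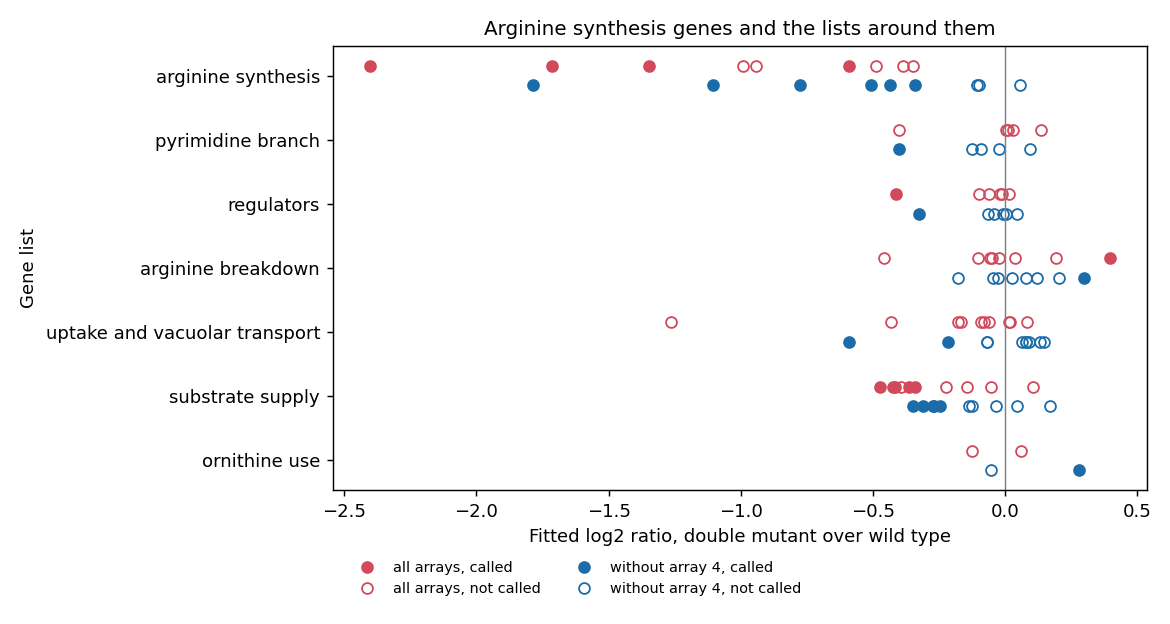
Fitted log2 ratio of the double mutant over the wild type for each gene of the arginine synthesis list and of the 6 lists around it, with all arrays (upper points of each list) and without array 4 (lower points); filled points have an adjusted p below 0.05. Arginine synthesis spans -2.40 to -0.35 with all arrays, while the other lists lie around 0 apart from substrate supply and single genes such as RTC2 at -1.26.

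Across the 8 arrays most members moved closely together. Pearson's r between a member and the mean of the other 8 was 0.939 to 0.997 for every member except CPA1, which had 0.73. CPA1 was least like ARG1, with r = 0.566. Without array 4 against the wild type, r with the mean of the others was 0.891 to 0.983 for 7 members, 0.479 for ARG8 and -0.849 for CPA1. With the labels as given, the positive r of CPA1 thus rested on that array, and that of ARG8 did in large part. Without array 4, r also takes in the gap between the comparisons. The member medians were then -0.56 to -0.22 against the wild type and 0.02 to 0.23 against the triple mutant. All r here take the ratios of double over triple mutant as labelled, though their direction is not settled. They were not computed with the sign turned, and the negative r of CPA1 may not hold then. The 8 genes outside the pathway whose ratios were most like the members' mean were SNZ1, ISU1, ARO3, NDE2, YJR154W, RTC2, IDP1 and ASN1, with r of 0.993 to 0.997 over 8 arrays. Without array 4 their r was 0.947 to 0.978. These are descriptions over arrays of 1 slide that all hold the double mutant. Over all 8 arrays 276 of 6404 genes, or 4.31%, had r of at least 0.9.

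SNZ1, a gene of vitamin B6 synthesis, had the closest pattern, with log2 ratios of -0.88, -1.16, -0.90 and -4.34 against the wild type. It was called lower at -1.82 (adjusted p = 0.0494), and at -0.997 without array 4 (adjusted p = 2.26e-05). ASN1, an asparagine synthetase, had -0.36, -0.47, -0.27 and -1.59 and was called lower at -0.67 (adjusted p = 0.0419), and at -0.39 without array 4 (adjusted p = 0.00153). ARO3, which opens aromatic amino acid synthesis, had -0.35, -0.64, -0.35 and -2.21 and a fitted ratio of -0.89 (adjusted p = 0.0599). Without array 4 ARO3 was called lower at -0.47 (adjusted p = 0.00151). NDE2 and YJR154W were likewise called only without array 4 (adjusted p = 0.00668 and 0.0121). ISU1 and IDP1 were called in neither fit, with adjusted p values of 0.117 and 0.172 without array 4. SNZ1, ASN1 and ARO3 share with the members a low value on array 4. In the comparison with the triple mutant their log2 ratios lay between -0.09 and 0.12. These genes were picked for their r with the members over the same arrays. The likeness and the calls thus follow in part from that choice and are no separate evidence.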

How the data were processed

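Per the file headers, the authors scanned 1 slide and used Agilent Feature Extraction 10.7.3.1. Of each deposited file the mean intensity, the background intensity and the processed intensity of both channels were used, beside 0 or 1 flags. A deposited table of normalized values was not used, since the names of its 8 columns could be tied to no array. Mean intensities were corrected by normexp (offset 50) and scaled within arrays by loess (limma 3.58.1, R 4.3.3), with control spots at no weight and outlier spots missing. Probes well above background in at least 4 of 16 channel measurements were kept, and the brighter probe stood for each of 6465 genes. Symbols were matched through RefSeq locus tags. limma was fitted to all 8 arrays with a coefficient per comparison and a common dye term (5 residual degrees of freedom), and genes were called at a Benjamini-Hochberg adjusted p below 0.05. The procedure was tested on simulated data. These had 1 spread per gene on all 8 arrays, while the real arrays differed in spread. The simulation therefore does not show how the test behaves with such a difference. The number of arrays limits the precision. The genes named were the 9 members, up to 4 genes of each other list by size of ratio, the 8 genes most like the members' mean, and PDR1, PDR5 and YOR1. Another gene of these lists is not reported here and stands in no list's count. The members and lists were chosen with earlier results of these data known. Alternatives covered background, scaling, filter, probe, dye, block, weights and arrays left out.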

Additional observations from a re-analysis of the deposited data

Results flagged for a closer look

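In 5 of the 18 sets of 4 arrays (9 genes in each of 2 comparisons), the most distant array lay further from the others than Dixon's test allows at the 95% level. Chance gives this in about 1 set in 20, and sets of genes that move together are not independent. All 5 were array 4 of the double mutant against the wild type. ARG2 was at -1.11 there, with the nearest array at -0.14. ARG5,6 was at -2.57, with the nearest at -0.56. CPA1 was at -1.78, with the nearest at -0.01. ARG3 was at -3.61, with the nearest at -1.29. ARG4 was at -3.01, with the nearest at -0.86.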

How the results depend on the processing

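The 9 members kept a median log2 ratio below 0 against the wild type under all alternatives, from -1.23 to -0.43 with arrays left out. The count called lower there, 4 with the settings used, was 2 with Agilent's processed signals, 1 with median centring, 0 with the 4 arrays of the comparison alone, and 1 to 6 with arrays left out. Against the triple mutant the count called in either direction was 2 with the 4 arrays alone, 1 with array quality weights and 0 to 2 with arrays left out, in place of 0. The median there was -0.00476 to 0.193 with arrays left out. Over all genes, 531 were called against the wild type, but 40 with processed signals, 54 with median centring, 25 with the 4 arrays alone, 277 with weights and 203 to 825 with arrays left out. Against the triple mutant 103 were called, but 40 with processed signals, 21 with median centring, 1247 with the 4 arrays alone, 180 with dye-swap pairs as a random block, 2055 with weights and 23 to 473 with arrays left out. The causes were not tested. The array numbers were not taken to pair the arrays. Deviations of the log2 ratios correlated between equally numbered arrays at -0.175, 0.202, 0.0692 and -0.0611. Ratios cancel what both channels of an array share, so these values cannot tell whether equally numbered arrays shared a culture. Whether they did was not tested. With the replicate block 2 members and 244 genes were called against the wild type, and 40 genes against the triple mutant. ARG1 was called lower under 13 of 14 other settings, ARG3 under 12, ARG4 under 10 and ORT1 under 8.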
